A study of Sus scrofa with 12 samples.

Results

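Genes of transforming growth factor beta (TGF-beta) signalling and of matrix remodelling were followed in the liver of Jinhua (JH) and Landrace (LD) pigs. The group was defined by symbol and held 10 genes out of the 31694 listed in each mRNA table. It comprised the ligands TGFB1, TGFB2 and TGFB3, the target gene CTGF, the crosslinking enzyme LOX, the proteases MMP2 and MMP14, and the inhibitors TIMP1, TIMP2 and TIMP3. Of these, 8 were listed under exactly that symbol. CTGF was listed as CCN2, which the RefSeq gene table gives as its synonym, and TIMP3 as TIMP-3. Both were matched after the tables had been seen and are called CCN2 and TIMP-3 hereafter.

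TGF-beta is secreted in a latent form that is stored in the matrix, and its release lets it bind surface receptors that act through SMAD proteins. In the liver it is best known for driving stellate cells, the pericytes of the sinusoids, to lay down collagen. The collagen is crosslinked by lysyl oxidases, cut by matrix metalloproteinases and spared by the tissue inhibitors of metalloproteinases, so these genes set how much matrix stays in place.

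Liver was sampled from 3 JH pigs, a Chinese indigenous breed kept for its fat deposition, and from 3 LD pigs, a lean and fast growing breed. All 6 animals were uncastrated males of 70 days of age, the labels name JH the experiment group and LD the control, and no treatment, transgene or pooling of animals is described. Each pig gave 1 mRNA library and 1 small RNA library, so each breed had 3 libraries of each kind and every p-value rests on the spread between pigs. Expression was measured in RPKM for genes, the reads of a gene scaled to its length and to the reads of the library, and in RPM for miRNAs, reads scaled to the clean reads of the library, both as deposited.

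The totals by which the RPKM of each mRNA library had been divided, recovered from the steps of the values, were between 5744908 and 7914515 reads, with the smallest in JH1. These are not the numbers of reads sequenced, which were larger. Ribosomal RNA differed widely between libraries whatever the breed, since RN18S, the 18S ribosomal RNA, stood at 1570 RPKM in JH2 and at 62257 RPKM in JH3. In LD its values were 7309, 2108 and 20160 RPKM. The hepatocyte genes ALB, TTR, SERPINA1 and TF were abundant in every library, as the tissue label says, whereas APOB was listed at 0 throughout, so that a listed 0 in these tables need not mean that a gene was silent.

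Between the breeds, 310 of 12993 tested genes (2.39%) were differentially expressed (DEGs) in limma. A DEG had to pass an adjusted p of 0.05, by Benjamini-Hochberg over all tested genes, and to differ by more than 1 on the log2 scale. Of all tested genes, 1.36% (177 genes) were called lower and 1.02% called higher in JH. None of the 10 genes of the group was called, that is 0 of the 9 tested by limma. At an unadjusted p below 0.05, 4 of the 9 passed, TGFB3, MMP2, TIMP2 and LOX, all lower in JH, where 9.51% of all tested genes did so. TGFB3 and LOX entered the test through their LD libraries, so the filter favoured this count. The fit to recovered reads with limma's voom called 1 of them, TGFB3, at an adjusted p of 0.0474. Fold changes are JH over LD on the scale of log2(RPKM + 0.1), which understates the change of low genes.

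The mean of LD exceeded that of JH in 9 of the 10 genes, TIMP-3 being the exception, and the fitted fold change was below 0 in 8 of the 9 tested, as it was in 47.1% of all tested genes. All 3 JH values lay below all 3 LD values in 5 of the 10, TGFB2, TGFB3, MMP14, TIMP2 and LOX, a pattern seen in 12.5% of all tested genes. TGFB2 was left out of the fit because it reached 0.5 RPKM in 1 library only, while TGFB3 and LOX entered it through their LD libraries, since 2 of 3 JH libraries of TGFB3 and 1 of 3 of LOX reached that level. The counts over the 9 tested genes and their median were therefore partly set by the filter. The median was -0.70, beside 0.04 over all tested genes. The highest value was found in LD2 for 6 of the 10 genes and the lowest in JH3, the library with the most RN18S, also for 6. Without JH3 the median was -0.58, 3 members had an unadjusted p below 0.05 and 0 were called.

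**Figure D1:**
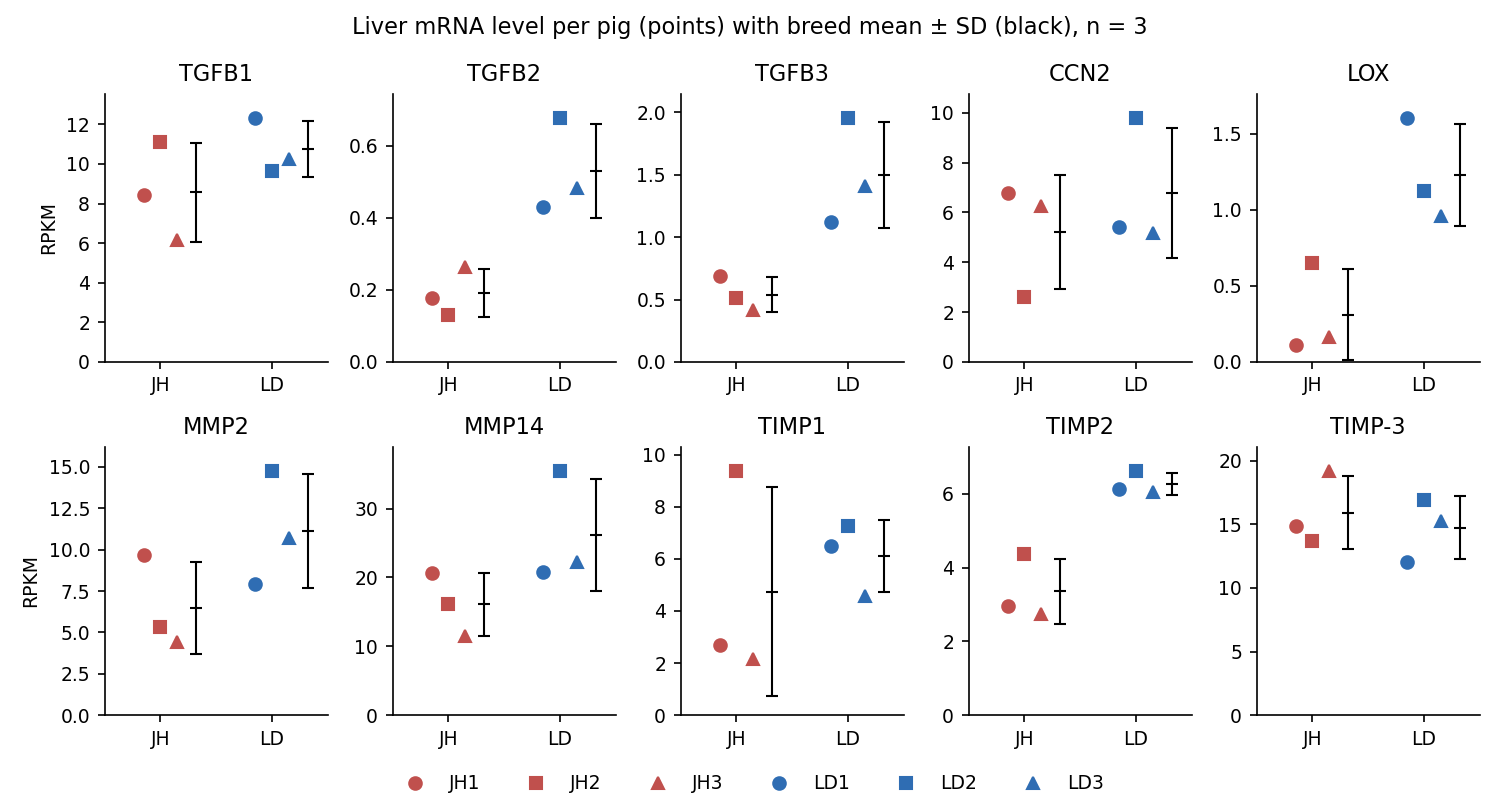
RPKM of each of the 10 genes (vertical axis, 1 panel per gene, own scale) in the 3 JH and the 3 LD livers. Points are single pigs and bars are the mean ± SD of each breed. In TGFB2, TGFB3, MMP14, TIMP2 and LOX every JH point sits below every LD point, and TIMP-3 is the gene with the higher JH mean, 15.9 against 14.7 RPKM.

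The levels ranged widely within the group. Averaged over the 6 libraries, MMP14 stood highest at 21.1 RPKM, followed by TIMP-3 at 15.3, TGFB1 at 9.65, MMP2 at 8.80, CCN2 at 6.0, TIMP1 at 5.42 and TIMP2 at 4.81 RPKM. TGFB3 at 1.02, LOX at 0.769 and TGFB2 at 0.360 RPKM made up the low end. Neighbours in this order were often not separated. TGFB1 exceeded MMP2 in 3 of 6 libraries and TIMP1 exceeded TIMP2 in 3 of 6. The step from TIMP2 to TGFB3 was the only one that held in all 6 libraries.

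TGFB1, the main TGF-beta isoform of the liver, was present at 8.43, 11.1 and 6.14 RPKM in JH1, JH2 and JH3 and at 12.3, 9.62 and 10.3 RPKM in LD1, LD2 and LD3. The breeds overlapped, since JH2 lay above both LD2 and LD3. The means were 8.56 ± 2.49 in JH and 10.7 ± 1.41 RPKM in LD (SD, n = 3 each), with a log2 fold change of -0.36 (SE 0.28) and an adjusted p of 0.545 in limma. As single libraries were left out it ranged from -0.56 without JH2 to -0.14 without JH3. Between 107 and 197 reads stood behind each value.

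TGFB3, the isoform studied mostly in development and wound repair, was read at 0.692, 0.512 and 0.415 RPKM in JH1, JH2 and JH3 and at 1.12, 1.96 and 1.41 RPKM in LD1, LD2 and LD3. All LD livers lay above all JH livers, LD2 being highest and JH3 lowest. The means were 0.540 ± 0.140 and 1.49 ± 0.425 RPKM, LD standing 2.77 times above JH. The log2 fold change was -1.31 (SE 0.39), with an unadjusted p of 0.0087 and an adjusted p of 0.130 in limma. It ranged from -1.48 to -1.11 as single libraries were left out. Its size moved with the pseudocount, from -0.69 with 1 RPKM to -1.45 with 0.01 RPKM. The reads numbered 21 to 26 in JH and 52 to 101 in LD. The two-sided exact permutation test gave 0.1, the smallest p that 3 pigs against 3 allow.

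TGFB2, the isoform with the lowest reads, gave 0.177, 0.131 and 0.263 RPKM in the JH livers and 0.430, 0.677 and 0.482 RPKM in the LD livers, again without overlap. These values stood for only 4, 4 and 8 reads in JH and 12, 21 and 15 reads in LD, so that counting error alone was large. In the fit without a filter on low values the log2 fold change was -1.12 (SE 0.42), with an unadjusted p of 0.0266 and an adjusted p of 0.273 in limma.

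Because the 3 ligands bind the same receptors, their RPKM were also summed within each library. TGFB1 made up most of the sum in every liver, 90.7%, 94.5% and 90.1% in JH1, JH2 and JH3 and 88.8%, 78.5% and 84.4% in LD1, LD2 and LD3. Its share was 91.7% ± 2.42 in JH and 83.9% ± 5.17 in LD (SD, n = 3 each), a difference (LD minus JH) of -7.81 points, and the breeds did not overlap (exact permutation p = 0.1). The share of TGFB3 was 5.96% ± 1.54 in JH and 11.9% ± 3.95 in LD, also without overlap, although JH1 at 7.44% came close to LD1 at 8.07%. The share of TGFB2 averaged 2.29% ± 1.41 in JH and 4.19% ± 1.23 in LD, with JH3 above LD1 (exact permutation p = 0.2).

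**Figure D2:**
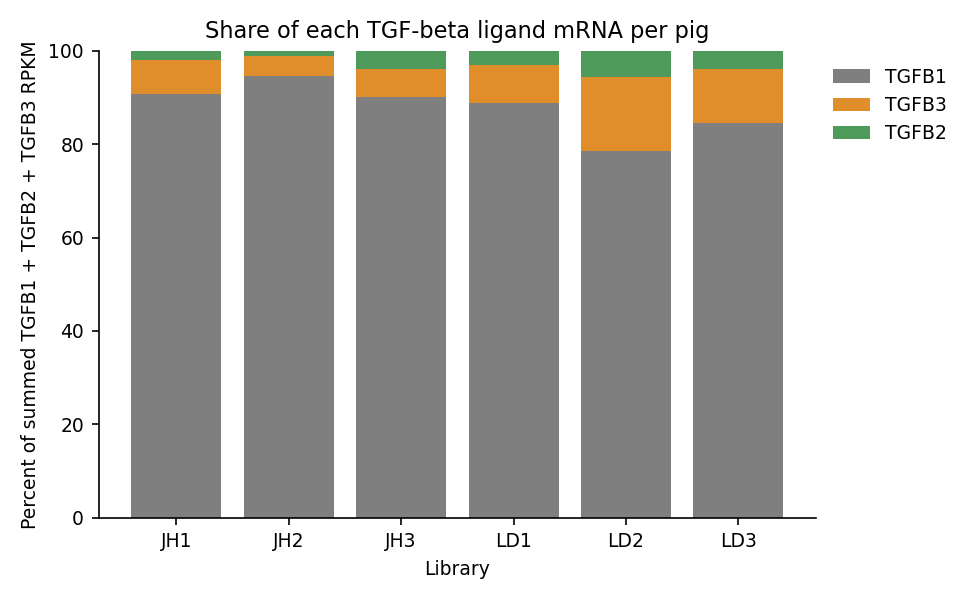
Share of each TGF-beta ligand in the summed RPKM of TGFB1, TGFB2 and TGFB3 (vertical axis, percent, stacked to the whole) in each of the 6 livers. TGFB1 takes 90.1% to 94.5% in the JH livers and 78.5% to 88.8% in the LD livers, and the share of TGFB3 is highest in LD2 at 16.0%.

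CCN2, a matricellular protein and a classical target of TGF-beta, was read at 6.78, 2.60 and 6.25 RPKM in JH1, JH2 and JH3 and at 5.39, 9.79 and 5.18 RPKM in LD1, LD2 and LD3. JH1 and JH3 lay above LD1 and LD3, and the breed means, 5.21 ± 2.28 and 6.79 ± 2.60 RPKM, were set apart mostly by the low JH2 and the high LD2. This gave a log2 fold change of -0.43 (SE 0.41) with an adjusted p of 0.626 in limma. It was 0.0041 without JH2, so that even its sign rested on that pig.

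LOX, the enzyme that oxidises lysines of collagen and elastin for crosslinking, was read at 0.110, 0.653 and 0.164 RPKM in the JH livers and at 1.60, 1.12 and 0.960 RPKM in the LD livers. All JH values were below all LD values, and JH2 stood well above JH1 and JH3. The reads were few, 1, 8 and 2 in JH and 18, 14 and 12 in LD. The log2 fold change of -1.91 (SE 0.58) was the largest of the group, with an unadjusted p of 0.00898 and an adjusted p of 0.132 in limma. Its size moved with the pseudocount, from -0.78 with 1 RPKM to -2.33 with 0.01 RPKM, and it ranged from -2.47 to -1.55 as single libraries were left out.

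**Figure D3:**
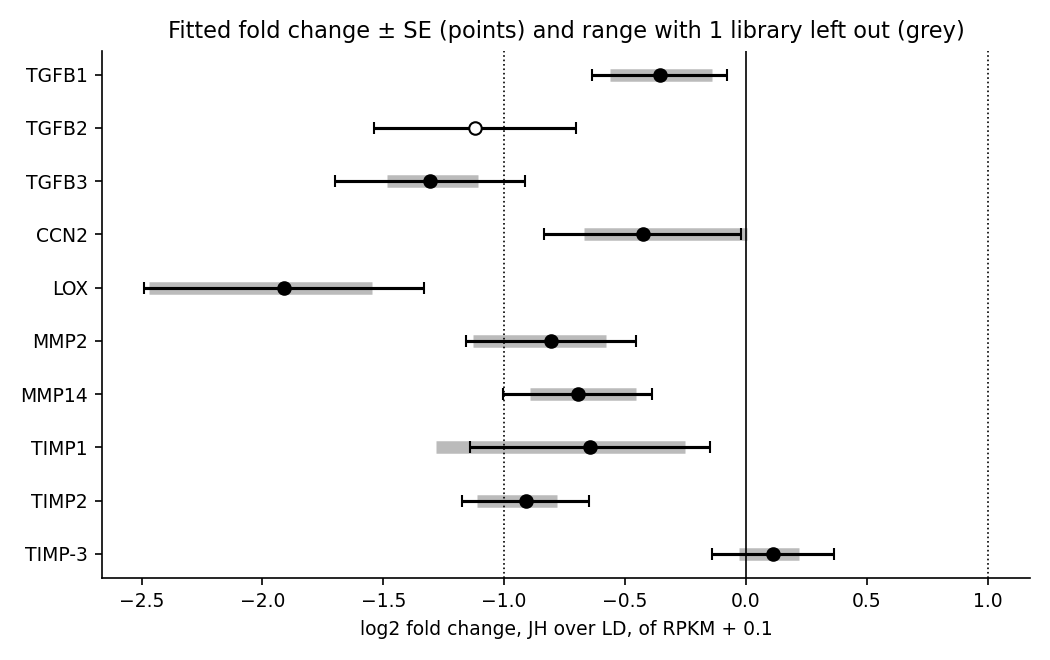
Fitted log2 fold change of JH over LD (horizontal axis) for each of the 10 genes, with its SE as a bar and, in grey, the range over the fits that each leave out 1 library. Dotted lines mark a log2 fold change of 1 in either direction, and the open point for TGFB2 comes from the fit without a filter. TGFB2, TGFB3 and LOX lie beyond the lower line at -1.12, -1.31 and -1.91, and TIMP-3 lies near 0 at 0.11.

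MMP2, the gelatinase that degrades denatured and basement membrane collagen, was read at 9.67, 5.34 and 4.43 RPKM in JH1, JH2 and JH3 and at 7.92, 14.7 and 10.7 RPKM in LD1, LD2 and LD3. The breeds overlapped through JH1, which lay above LD1. The means were 6.48 ± 2.80 in JH and 11.1 ± 3.43 RPKM in LD, with a log2 fold change of -0.80 (SE 0.35), an unadjusted p of 0.0473 and an adjusted p of 0.273 in limma.

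MMP14, a membrane-bound protease that cuts fibrillar collagen and activates the MMP2 precursor, was read at 20.6, 16.1 and 11.5 RPKM in JH and at 20.8, 35.4 and 22.2 RPKM in LD. JH1 lay just under LD1, and LD2 was well above the others. The means were 16.1 ± 4.53 and 26.2 ± 8.07 RPKM, the log2 fold change was -0.70 (SE 0.31), and the unadjusted and adjusted p were 0.0501 and 0.280 in limma. Without LD2 the log2 fold change was -0.46. This was the best covered gene among the proteases, with 332 to 1040 reads per library.

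TIMP2, an inhibitor that also takes part in the activation of MMP2 on the cell surface, was read at 2.96, 4.37 and 2.73 RPKM in JH1, JH2 and JH3 and at 6.13, 6.62 and 6.06 RPKM in LD1, LD2 and LD3. The LD livers were tightly grouped and all lay above the JH livers, of which JH2 came closest. The means were 3.35 ± 0.886 and 6.27 ± 0.302 RPKM, LD standing 1.87 times above JH. The log2 fold change was -0.91 (SE 0.26) and the unadjusted p of 0.0067 was the smallest of the group, but the adjusted p was 0.118 in limma. With single libraries left out it ranged from -1.11 to -0.78, and between 104 and 319 reads stood behind each value.

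TIMP1, the inhibitor best known to be induced in injured liver, varied widely among the JH pigs, at 2.67, 9.36 and 2.17 RPKM in JH1, JH2 and JH3. The LD livers gave 6.49, 7.25 and 4.59 RPKM and lay between the low JH livers and JH2. The means were 4.73 ± 4.02 and 6.11 ± 1.37 RPKM, and the log2 fold change of -0.64 (SE 0.50) had an adjusted p of 0.542 in limma. It was -1.28 without JH2 and -0.25 without JH3, and the reads numbered only 11 to 52.

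TIMP-3, the inhibitor that stays bound to the matrix, was read at 14.9, 13.7 and 19.2 RPKM in JH and at 12.0, 16.9 and 15.2 RPKM in LD. The breeds overlapped almost wholly. Its fold change on the log2 scale was 0.11 (SE 0.25) with an adjusted p of 0.854 in limma, and its sign turned without JH3 (-0.029), without LD1 (-0.026) and under quantile normalization (-0.00038).

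Ratios of 2 genes within a library do not depend on how the library was scaled, and 7 of them were compared between the breeds with two-sided exact permutation tests, adjusted over the 7. With 3 pigs against 3 the exact p cannot go below 0.1, so no ratio could have passed 0.05 whatever its values, and the ratios are given as a description. The log2 ratio of MMP14 to TIMP2 was 2.25 ± 0.48 in JH and 2.02 ± 0.35 in LD (exact permutation p = 0.5). For MMP2 to TIMP2 it was 0.90 ± 0.73 in JH and 0.78 ± 0.39 in LD (exact permutation p = 0.9). The summed proteases over the summed inhibitors gave a log2 ratio of -0.13 ± 0.61 in JH and 0.42 ± 0.25 in LD (exact permutation p = 0.3), with JH1 among the LD values. That difference of -0.55 was -0.90 without JH1 and -0.32 without JH3.

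The ratio of TGFB1 to TGFB3 was the one in which the breeds did not overlap. TGFB1 stood 12.2, 21.7 and 14.8 times above TGFB3 in JH1, JH2 and JH3 and 11.01, 4.92 and 7.29 times above it in LD1, LD2 and LD3. On the log2 scale the means were 3.98 ± 0.42 and 2.88 ± 0.58 (exact permutation p = 0.1, adjusted 0.7). The ratio of TIMP1 to TIMP-3 differed by -0.78 in the mean log2 ratio, which was -1.53 without JH2 and -0.23 without JH3, and that of CCN2 to TGFB1 differed by -0.08. In both the breeds overlapped.

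Across the 6 libraries some pairs of genes of the group had like values and others did not. Of 36 pairs of tested genes 10 had a negative Pearson correlation of the log2 values, and TIMP-3 was negative with 7 of its 8 partners. The highest values were 0.96 between MMP2 and MMP14, 0.96 between TIMP2 and LOX and 0.92 between TGFB3 and MMP14, and the lowest was -0.88 between TGFB1 and TIMP-3. These are descriptions over 6 libraries that share the breed difference and their scaling. Among 9314 tested genes with a symbol, those most like TGFB3 included C1QTNF6 and PLXND1, and those most like TIMP2 were CHD3, NAP1L3 and PCOLCE, with a correlation of 0.99 in each case. They were picked as the highest of that many over 6 libraries, so the size of the correlation is no evidence of a link.

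The wider TGF-beta pathway was described with a list of 30 genes, of which 28 were in the tables and 24 were tested. Called was 1 gene of the 24, lower in JH, beside 1.36% of all tested genes called lower, a count too small to set the list apart. It was SMAD3, a transcription factor that carries the signal from the receptor to the nucleus. SMAD3 fell from 4.63, 5.11 and 3.46 RPKM in LD1, LD2 and LD3 to 1.39, 1.48 and 1.74 RPKM in JH1, JH2 and JH3, a log2 fold change of -1.45 (SE 0.27) with an adjusted p of 0.0345 in limma. The call was held in 1 of 6 fits that leave out 1 library, that without JH3.

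The other 23 tested genes of the pathway were not called, and 5 of the 24 had a higher fitted value in JH. The median over the 24 was -0.42. LTBP1, which tethers latent TGF-beta to the matrix, was read at 2.85, 1.38 and 2.64 RPKM in JH and at 4.97, 5.05 and 5.04 RPKM in LD, with a log2 fold change of -1.16 and an adjusted p of 0.0971 in limma. For its relatives LTBP2 and LTBP4 the adjusted p was 0.123 and 0.170, and for the co-receptors ENG and TGFBR3 0.228 and 0.244, all with lower fitted values in JH. The inhibitors SMAD6, SMAD7 and BAMBI had higher fitted values in JH, at log2 fold changes of 0.53, 0.38 and 0.72. Their adjusted p were 0.362, 0.580 and 0.432 in limma, and in SMAD6 all JH livers lay above all LD livers. Other inhibitors on the list, SMURF1, PMEPA1, DCN and TGIF1, had lower fitted values in JH, at -0.50, -0.47, -0.50 and -0.13. SKIL stood at 0.08, so the inhibitors did not share a direction. TGFBR2 and SKI had no row under these symbols, and SMURF2 was listed at 0 in every library.

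Among other enzymes and factors that remodel matrix, 45 were listed, 40 were in the tables and 26 were tested. Of these, 20 had a lower fitted value in JH, as 47.1% of all tested genes had, 6 had a higher one, and the median was -0.58. Called lower in JH were 4, MMP7, MMP11, PCOLCE and NOV, and 0 were called higher. Of all tested genes 1.36% were called lower and 1.02% higher. MMP7, the matrilysin of epithelial cells, was read at 3.10, 5.24 and 2.85 RPKM in JH and at 23.8, 20.4 and 10.6 RPKM in LD, and fell by 2.23 on the log2 scale (SE 0.36, adjusted p = 0.0190 in limma). NOV, a relative of CCN2, was read at 0.505, 0.961 and 0.535 RPKM in JH and at 5.66, 9.86 and 3.45 RPKM in LD, and fell by 2.99 (SE 0.42, adjusted p = 0.0102). In both genes every LD liver lay far above every JH liver.

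PCOLCE, which enhances the trimming of procollagen, was read at 10.4, 19.7 and 9.24 RPKM in JH and at 36.3, 50.4 and 32.04 RPKM in LD, and fell by 1.64 on the log2 scale (SE 0.33, adjusted p = 0.0414 in limma). MMP11, or stromelysin 3, fell by 1.21 on the log2 scale (SE 0.25, adjusted p = 0.0420). When single libraries were left out, NOV stayed called in 5 of 6 fits, MMP7 in 3, PCOLCE in 1 and MMP11 in 0. Without LD1 the count for this list was 0.

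Collagens and other structural matrix proteins, which include substrates of LOX, MMP2 and MMP14, were described with 16 genes, of which 15 were in the tables and tested. All 15 had a lower fitted value in JH, as 47.1% of all tested genes had. LUM and FBN1 entered the test through their LD libraries, so the filter favoured this count. Called lower were 7, COL1A1, COL1A2, COL3A1, COL4A1, COL6A3, FN1 and SPARC, where 1.36% of all tested genes were called lower. The median over the 15 was -1.28. COL1A1, a chain of type I collagen, was read at 4.70, 7.93 and 6.81 RPKM in JH and at 31.7, 89.7 and 29.4 RPKM in LD, with LD2 far above the other LD livers, and fell by 2.77 on the log2 scale (SE 0.43, adjusted p = 0.0144 in limma). SPARC, a collagen-binding protein, fell by 1.91 (SE 0.28, adjusted p = 0.0125) and COL3A1 by 1.75 (SE 0.28, adjusted p = 0.0159).

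For the other 4 called genes of the structural list the log2 fold change was -1.95 for COL6A3, -1.78 for COL1A2, -1.28 for FN1 and -1.26 for COL4A1, with adjusted p between 0.0227 and 0.0489 in limma. Leaving out 1 library lowered the count of 7 to between 0 (without LD1) and 5, with 2 without LD2 and 3 without JH1. COL1A1 and SPARC stayed called in 5 of 6 such fits, COL3A1 in 4 and COL6A3 in 3. COL1A2 stayed called in 2, FN1 in 1 and COL4A1 in 0. FN1, fibronectin, was the most abundant gene of the list, is also made by hepatocytes and was not called after median scaling.

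**Figure D4:**
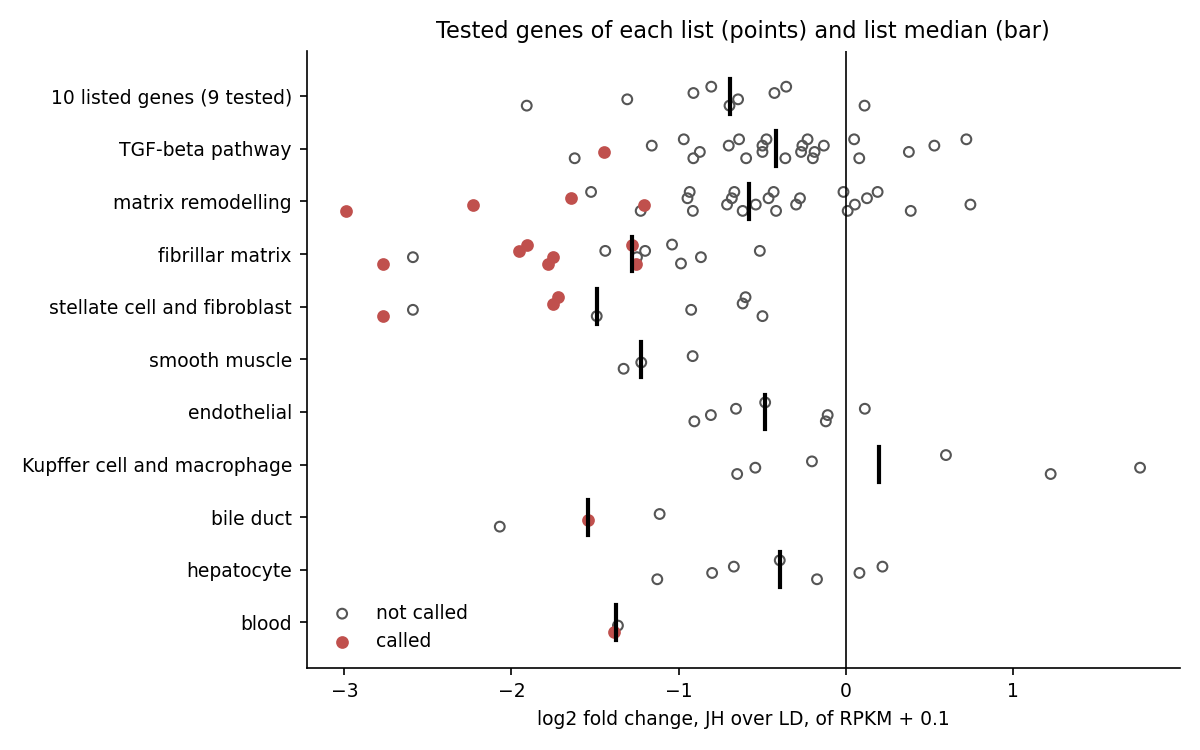
Fitted log2 fold change of JH over LD (horizontal axis) of the tested genes in each list, with filled points for called genes and a bar at the median. The 9 tested genes of the group have a median of -0.70 and no filled point, while the 15 structural matrix genes (fibrillar matrix) have a median of -1.28 and 7 filled points.

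Markers of the cells that could carry these transcripts were listed as well. In whole liver, fewer cells of a type and less RNA per cell cannot be told apart. Of 10 markers of stellate cells and fibroblasts, 9 were in the tables and tested, and all 9 had a lower fitted value in JH (47.1% of all tested genes). Called lower were 3 (1.36% of all tested genes), LRAT, COL1A1 and COL3A1. Both collagens are also on the structural list, as is LUM, which was not called. LUM reached 0.5 RPKM in LD libraries only, so the filter favoured its lower fitted value in JH. LRAT, the enzyme with which stellate cells store retinol, was read at 0.424, 0.512 and 0.564 RPKM in JH and at 1.99, 1.80 and 1.81 RPKM in LD, and fell by 1.72 on the log2 scale (SE 0.34, adjusted p = 0.0384 in limma). The call of LRAT was held in 1 of 6 fits that leave out 1 library. The summed RPKM of the stellate markers was 54.0 to 74.4 in JH and 156 to 290 in LD, and RELN was not found under its symbol. Most of that sum is COL3A1 and COL1A1 in every library, so it largely repeats values of the structural list. COL3A1 alone stood at 30.6 to 46.8 RPKM in JH and 99.6 to 165 RPKM in LD. The summed RPKM of the 10 genes of the group was 53.3 to 67.0 in JH and 74.2 to 104 in LD. The part of stellate cells in the values of the group was not tested.

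Other cell types were covered by shorter lists. Of the smooth muscle markers 3 of 4 were tested, all 3 had a lower fitted value in JH (47.1% of all tested genes) and 0 were called. MYH11 was listed at 0, and the sum was 28.7 to 51.0 RPKM in JH and 41.0 to 152 RPKM in LD. The smallest p in that list belonged to ACTA2 and TAGLN, actin and an actin-binding protein of smooth muscle and activated stellate cells, with adjusted p of 0.171 and 0.215 in limma. Of the endothelial markers 7 of 8 were tested and 0 were called, with 6 lower and 1 higher in JH by fitted value. In 3 of them, PECAM1, KDR and VWF, every JH value lay below every LD value, as in 12.5% of all tested genes. KDR and PECAM1 had adjusted p of 0.0811 and 0.0988 in limma. The sums of 168 to 273 RPKM in JH and 216 to 274 RPKM in LD overlapped. Most of these sums is CLEC4G, at 109 to 213 RPKM in JH and 135 to 195 RPKM in LD. Of the macrophage markers 6 of 8 were tested and 0 were called, with 3 lower and 3 higher in JH, CD163 at 0 in all libraries and overlapping sums of 625 to 1293 and 1079 to 1264 RPKM. CD5L and C1QB had the smallest p there, at adjusted p of 0.179 and 0.234.

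The bile duct list had 3 of 5 markers tested, all 3 with a lower fitted value in JH (47.1% of all tested genes). EPCAM, an adhesion protein of duct cells, fell by 1.55 on the log2 scale in JH (adjusted p = 0.0301 in limma). The sums of this list were 6.99 to 15.5 RPKM in JH and 14.2 to 34.5 RPKM in LD. In the blood list 2 genes were tested, both with a lower fitted value in JH. HBB, the beta chain of haemoglobin, fell by 1.39 (adjusted p = 0.0459 in limma). The blood sums were 90.1 to 122 RPKM in JH and 212 to 393 RPKM in LD. The calls of EPCAM and HBB were each held in 1 of 6 fits that leave out 1 library. Of 4 platelet genes, listed because platelets store TGF-beta, PF4 and PPBP were listed at 0 and 1 was tested, ITGA2B, at 2.39 ± 0.257 RPKM in JH and 1.61 ± 0.353 RPKM in LD (log2 fold change 0.56, adjusted p = 0.356 in limma). Their sums were 2.65 to 3.01 RPKM in JH and 1.22 to 2.88 RPKM in LD.

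Of 8 hepatocyte markers 7 were tested and 0 called, 5 had a lower and 2 a higher fitted value in JH, and the sum, most of which is ALB, was 42566 to 47510 RPKM in JH and 62500 to 78313 RPKM in LD. TF and SERPINA1, both secreted plasma proteins, had the smallest p, with adjusted p of 0.153 and 0.169 in limma. The sums of the blood, hepatocyte and stellate lists were lower in every JH than in every LD library, while those of the bile duct list overlapped. The part of any of these cells in the values of the group was not tested.

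**Figure D5:**
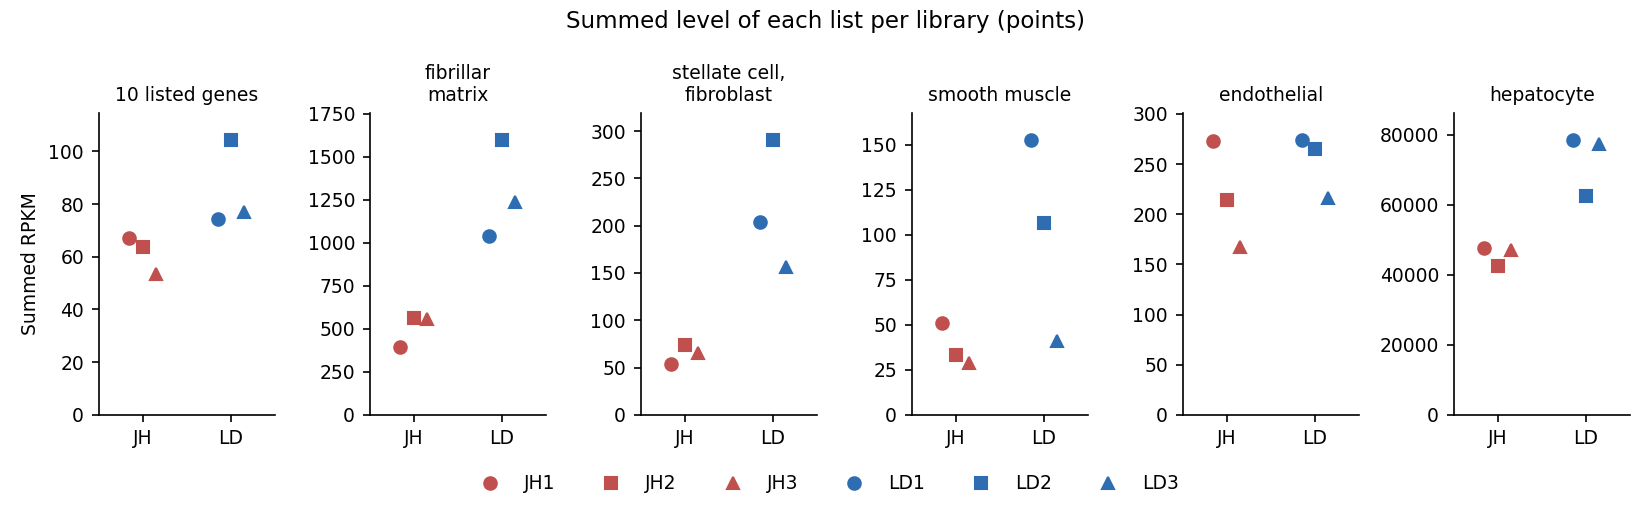
Summed RPKM per library (vertical axis, own scale in each panel) of the 10 genes of the group, the structural matrix genes (fibrillar matrix) and 4 marker lists, with 1 point per pig. The sums of the group (53.3 to 67.0 in JH, 74.2 to 104 in LD), the structural matrix genes, the stellate markers and the hepatocyte markers are lower in every JH liver than in any LD liver, while those of smooth muscle and endothelium overlap. Most of the stellate sum is COL3A1 and COL1A1, which are also among the structural matrix genes.

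The small RNA libraries of the same pigs were read for miRNAs known from other work to act on these genes or on TGF-beta signalling. Fold changes of miRNAs are LD over JH on the scale of log2(RPM + 0.5), and a miRNA was called by limma at an unadjusted p below 0.05 with an absolute log2 fold change above 1, the threshold of the study. Of all 241 tested miRNAs 30 (12.4%) were called, 185 (76.8%) had a higher fitted value in LD, and their median log2 fold change was 0.30. Every value below is therefore to be read against that shift. Of 43 listed names 40 were tested, 35 had a higher fitted value in LD, the median was 0.47, and 9 were called, 8 of them higher in LD. All 8 had every JH value below every LD value, a pattern that a call on the same values already favours and so no added evidence. It was seen in 29.9% of all tested miRNAs. After adjustment 8 of the 9 stayed below 0.05. The fewest reads behind any miRNA value above 0 were 10 in every library, so a listed 0 may stand for fewer than 10 reads.

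miR-29b, of a family known to act on collagen and LOX mRNA, was the 1 called miRNA that was higher in JH. It was read at 46.2, 36.4 and 24.8 RPM in JH1, JH2 and JH3 and at 12.8, 9.83 and 13.9 RPM in LD1, LD2 and LD3, without overlap. It had a log2 fold change of -1.49 (SE 0.27) with an adjusted p of 0.00782 in limma, and -1.88 after the libraries were scaled to their median. miR-29a, the most abundant of the family, was not called, at 953 ± 217 RPM in JH and 868 ± 45.5 RPM in LD. Nor was miR-29c, which had the higher mean in LD, at 5.60 ± 1.52 RPM in JH and 6.62 ± 3.41 RPM in LD.

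miR-429, of the family that forms a loop with TGF-beta and the ZEB repressors in epithelial cells, was the other call that held under median scaling. It was read at 3.17, 2.21 and 2.16 RPM in JH and at 10.6, 12.11 and 7.54 RPM in LD. Its log2 fold change was 1.80 (SE 0.29) with an adjusted p of 0.00436 in limma, and 1.41 under median scaling. No LD value came near a JH value in this miRNA.

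The other 7 calls were higher in LD and were lost under median scaling and under quantile normalization, where only miR-29b and miR-429 stayed called, although all 9 kept their sign. Under median scaling 6 of the 7 still had an unadjusted p below 0.05 in limma, from 0.00537 to 0.0256, and log2 fold changes of 0.61 to 0.78, below the limit of 1. For miR-133a-3p the p was 0.0630. The 7 included miR-145-5p, miR-199a-3p, miR-199b-3p and miR-199b-5p, miRNAs of stellate and smooth muscle cells, of which miR-145-5p stood at 906 ± 152 RPM in JH and 2008 ± 346 RPM in LD. miR-199a-3p and miR-199b-3p are near-identical, with means of 3665 and 3622 RPM in JH and 7845 and 8020 RPM in LD, so they count as uncertain separate calls. miR-181d-5p and miR-181b, of a family known to act on TIMP3 mRNA, had log2 fold changes of 1.17 and 1.00, and miR-133a-3p, known to act on CTGF mRNA, had 1.05 with an adjusted p of 0.0544.

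The most abundant miRNAs known for CTGF, TIMP3 and TGFBR2 mRNA, and the most abundant of the stellate and smooth muscle miRNAs, were not called. miR-143-3p stood at 20707 ± 6399 RPM in JH and 33638 ± 7680 RPM in LD (log2 fold change 0.72, adjusted p = 0.0918 in limma). miR-21, known to act on TIMP3 mRNA, stood at 18596 ± 6066 and 24113 ± 2303 RPM (0.42, adjusted p = 0.284). miR-30a-5p, of a family known to act on CTGF mRNA, stood at 10527 ± 2318 and 13907 ± 2299 RPM, and miR-20a, known to act on TGFBR2 mRNA, at 488 ± 63.7 and 611 ± 27.9 RPM. Whether any of these miRNAs acted on a gene of the group in these livers was not tested.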

How the data were processed

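Liver of 3 JH and 3 LD pigs was sequenced in 1 mRNA and 1 small RNA library per pig, and libraries were grouped by breed and number as the labels give them. For mRNA, the authors filtered 50 bp single reads, aligned them with TopHat2 2.0.13 to an earlier pig assembly than that of the gene table used here (Sscrofa11.1), counted reads with gfold and deposited RPKM values. For miRNA, the authors deposited RPM values, reads scaled to the clean reads of the library. RPKM scale with everything counted, so a library rich in RN18S has less room for other genes. The tables hold no coordinates or sequences, so none are given.

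Read numbers were recovered from the steps of the RPKM for 19501 of 19614 genes above 0 (99.4%). Breeds were compared with limma 3.58.1 in R 4.3.3 (lmFit, then eBayes allowing a trend). Genes entered as log2(RPKM + 0.1) where 3 or more libraries reached 0.5 RPKM, and miRNAs as log2(RPM + 0.5) where 3 or more reached 1 RPM. In any list a feature could enter through a single breed, which favours a lower fitted value in the other breed. P-values were adjusted by Benjamini-Hochberg over all features tested, and the fits were tested on simulated data. Exact permutation tests were two-sided. Tables and plots were made with Python 3.11.15, pandas 2.3.3, numpy 2.4.6 and matplotlib 3.10.9.

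Named were all 10 genes of the group, the called genes of every other list or, where none was called, the 2 with the smallest p, the called miRNAs and the most abundant of each miRNA group, RN18S, and for the 2 genes with the smallest p the 3 most correlated genes. Some genes under this rule are not reported here. The uncalled LTBP, co-receptor and inhibitor genes of the pathway were named after their values were seen. The members and lists were chosen with earlier results of these data known. Alternatives were other pseudocounts, no filter, quantile and median scaling, the replicate number as a block, voom on recovered reads and each library left out. Amplified reads need not be separate molecules, so counting error is all that the read numbers speak to.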

Additional observations from a re-analysis of the deposited data

How the results depend on the processing

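None of the tested genes of the group was called by limma under any alternative except voom on recovered reads, which called 1 (TGFB3, log2 fold change -1.47). The median over the group stayed between -0.84 and -0.51. The signs of CCN2 (-0.67 to 0.0041 as libraries were left out, the latter without JH2) and TIMP-3 (-0.00038 under quantile normalization, -0.029 without JH3, -0.026 without LD1, up to 0.22) turned. Of the log2 ratios, MMP2/TIMP2 turned to -0.29 without JH1 and -0.089 without LD1 (highest 0.42), MMP14/TIMP2 to -0.039 without JH1 (highest 0.43), MMP2/MMP14 to 0.0026 without JH2 (lowest -0.25), and CCN2/TGFB1 to 0.57 without JH2 and 0.30 without LD2 (lowest -0.49). TIMP1/TIMP-3 ranged from -1.53 to -0.23 and the summed proteases over inhibitors from -0.90 to -0.32; the cause was not tested. The 310 DEGs became 199 with a pseudocount of 0.01, 200 with no filter and 63 (without LD1) to 403 (without JH3) as libraries were left out, among them 84 without LD2, 116 without LD3, 145 without JH2 and 157 without JH1. Leave-one-out counts were 0 to 1 for the TGF-beta pathway, 0 to 3 for matrix remodelling, 0 to 5 for structural matrix genes and 8 to 13 for listed miRNAs. The 9 listed miRNAs became 5 with a pseudocount of 5 and 2 under quantile normalization and under median scaling. Same-numbered pigs did not deviate together (correlations of -0.016, 0.052 and 0.18 for mRNA and -0.072, -0.32 and -0.087 for miRNA). The replicate block gave 253 DEGs, 0 for the pathway list, 3 for matrix remodelling, 7 for structural matrix genes and 9 listed miRNAs, SMAD3, MMP11, LRAT and HBB losing their calls (adjusted p of 0.0568, 0.0571, 0.0640 and 0.0526). A count test of miRNA reads was not run, since RPM are not counts; voom on recovered miRNA reads, chosen after seeing the data as was the use of the 8 exact symbols alone (median -0.80), called 10. Depth limits TGFB2, LOX and TIMP1 most.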
